A study of Mus musculus with 6 samples.

Results

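Matrix proteases cut the collagens, proteoglycans and adhesion proteins around cells, and a smaller set of proteins holds them in check. The genes described here are 43 such genes, taken by name with earlier results of these data known. Of them, 41 were measured among 23279 genes tested. They fall into 9 matrix metalloproteinases (MMPs), 16 ADAMTS proteases, 6 ADAM proteases, 5 inhibitors, 3 genes of plasminogen activation and 2 tolloid proteases. Mmp15 and Adamts2 were not analysed here.

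Expression was measured on Affymetrix arrays in total RNA of whole livers from mouse embryos at embryonic day 11.5. There were 6 arrays, 3 of livers labelled Gata4 knockout (Stab2-Cre;Gata4fl/fl) and 3 of control livers, whose titles read Stab2Cre;Gata4 heterozygous. Embryos came from matings of Stab2-Cretg/wt;Gata4fl/wt animals with Gata4fl/fl animals, with the floxed allele of the line B6;129-Gata4tm1.1Sad/J, so embryos of both groups inherit a floxed Gata4 allele from the Gata4fl/fl parent. Stab2 encodes a scavenger receptor of liver sinusoidal endothelial cells, so the Cre acts where its promoter is or was active, while the arrays read the whole organ. Replicates are described as biological ones, but litters and pooling of embryos are not stated in the labels, so p-values measure only the spread between these samples.

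The values are log2 expression values with a median of 5.43 in every array, and every fold change below is labelled knockout minus control. Albumin and alpha-fetoprotein, defining products of the liver, read between 13.3 and 13.5 in all 6 arrays. Gata4 itself was higher in the livers labelled knockout (log2 fold change 0.51, SE 0.12, limma adjusted p = 0.0409), and Stab2 was lower (−1.30, SE 0.20, adjusted p = 0.0161). Gata4 is also made by other liver cells and where its probes lie relative to the floxed exons is not known here, so it does not check the labels, on which each direction rests. The groups differ in embryo sex. By Xist and Uty, control replicates 1 and 3 read as male and the other 4 arrays as female. Some arrays also read high for heart or neural genes, and whether this is RNA of neighbouring tissue was not tested. The heart gene Actc1 read 11.28 in control replicate 2 and 10.92 in labelled knockout replicate 3, against 7.33 to 9.01 elsewhere. The neurofilament gene Nefl read 7.0 in labelled knockout replicate 2 and at most 4.23 elsewhere.

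MMPs and ADAMTS proteases are zinc enzymes made as inactive precursors. MMPs degrade collagens, gelatin and many other matrix proteins, some of them while anchored in the cell membrane. ADAMTS proteases are secreted and bind the matrix, where several cleave the large proteoglycans versican and aggrecan and others trim procollagens or bind fibrillin. ADAM proteases sit in the membrane and shed the outer parts of receptors, ligands and adhesion molecules. Tissue inhibitors of metalloproteinases (TIMPs) block the active sites, and plasmin, made from plasminogen by its activators, degrades fibrin and can activate MMP precursors. In the liver such enzymes are known for remodelling the space around sinusoids and stellate cells.

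Of the 41 measured genes, 13 rose in the livers labelled knockout and 0 fell, while 28 did not pass the threshold, an adjusted p of 0.05 by limma over all genes. Of all genes tested, 3.59% rose and 2.77% fell, 6.36% in either direction. The list was chosen with earlier results of these data known, so its counts beside these shares describe the list and test nothing. At an unadjusted p under 0.05 the members counted 19 higher and 0 lower, where 11.1% of all genes were higher and 11.5% lower. The rises were moderate, from 1.41-fold in Adam19 to 1.86-fold in Adamts1. They came from each of the 6 groups: Mmp2, Mmp14 and Mmp16 among the MMPs, Adamts1, Adamts4, Adamts9, Adamts10 and Adamts12 among the ADAMTS genes, Adam12 and Adam19 among the ADAMs, Reck among the inhibitors, Plat in plasminogen activation and Bmp1 of the tolloids. Over the 41 members the median log2 fold change was 0.24, against −0.01 over all genes tested. All 13 members that rose had 3 labelled knockout arrays above 3 control arrays, as had 5 others, which makes 18 members. Over all genes such a gap was found upward in 13.0% and downward in 14.3%. In whole tissue, more cells of a type and more RNA of a gene per cell cannot be told apart.

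**Figure D1:**
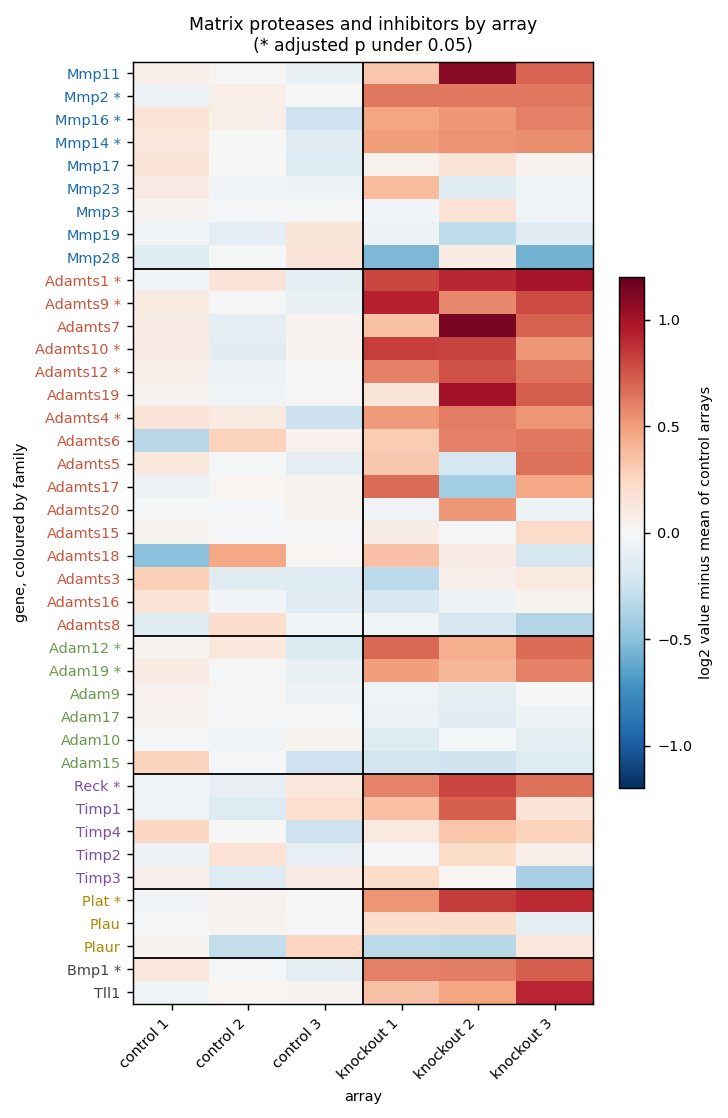
Heat map of 41 genes in rows, with names coloured by family and ordered by fold change within a family, and 6 arrays in columns; colour is the log2 value minus the mean of the control arrays, and an asterisk marks an adjusted p under 0.05. The 13 genes with an asterisk are red in all 3 labelled knockout arrays, as are rows without one such as Mmp11 and Adamts7, where labelled knockout replicate 2 is the darkest, while the other ADAM rows are pale or blue.

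Members also differed in how brightly they read. Of 31 members whose mean over the 6 arrays lay above the array median, 12 rose, and of 10 members at or below it 1 rose, Adamts4. Over all genes the shares that rose were 6.31% above and 0.785% at or below that median. No measure of signal over background was used, so for the dim members a level could not be told from background.

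RefSeq promoter entries (GRCm38.p6) were found for 23 of the 41 genes, 6 of them among the 13 that rose. The 250 bases before the annotated start are shown for Adamts1, the member with the largest rise, for Mmp14 and Reck, a membrane protease and the membrane inhibitor that rose with it, and for Adam19, whose most upstream start was the only 1 of their 8 entries with the GATA motif. Capitals mark matches on either strand to the GATA motif (AGATAA or AGATAG as well as TGATAA or TGATAG), the AP-1 motif (TGANTCA), known from several MMP promoters, and the GC box (GGGCGG), and no match of one motif overlaps another motif here. Each is written 5′ to 3′ on the strand of its gene.
Adamts1, chr16:85803114-85803363, minus strand: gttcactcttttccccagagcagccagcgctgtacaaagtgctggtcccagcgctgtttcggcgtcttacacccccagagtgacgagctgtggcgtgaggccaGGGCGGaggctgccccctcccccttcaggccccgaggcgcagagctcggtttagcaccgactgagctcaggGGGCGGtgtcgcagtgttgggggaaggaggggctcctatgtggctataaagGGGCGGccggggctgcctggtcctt
Mmp14, chr14:54431348-54431597, plus strand: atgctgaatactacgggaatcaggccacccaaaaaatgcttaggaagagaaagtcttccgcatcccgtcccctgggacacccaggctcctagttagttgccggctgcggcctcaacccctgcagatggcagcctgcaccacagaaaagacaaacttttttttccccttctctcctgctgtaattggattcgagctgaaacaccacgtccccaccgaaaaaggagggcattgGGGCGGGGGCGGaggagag
Reck, chr4:43875280-43875529, plus strand: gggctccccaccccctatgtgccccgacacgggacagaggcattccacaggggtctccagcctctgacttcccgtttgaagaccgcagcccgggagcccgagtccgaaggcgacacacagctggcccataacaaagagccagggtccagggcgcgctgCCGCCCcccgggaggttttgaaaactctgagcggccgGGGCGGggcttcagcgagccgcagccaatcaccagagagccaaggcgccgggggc
Adam19, chr11:46054252-46054501, plus strand: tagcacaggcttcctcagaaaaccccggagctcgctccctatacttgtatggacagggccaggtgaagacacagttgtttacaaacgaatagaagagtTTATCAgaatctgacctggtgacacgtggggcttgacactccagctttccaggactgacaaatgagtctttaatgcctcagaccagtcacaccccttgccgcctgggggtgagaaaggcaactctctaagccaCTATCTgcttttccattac
Adamts1 held 3 GC boxes, and Mmp14 and Reck held 2 each, those of Mmp14 directly side by side. Adam19 held 2 GATA matches here, and its next annotated start held 1 AP-1 match. Of 8 entries of the genes that rose, 4 held a GC box, 1 a GATA match and 1 an AP-1 match. Among all 26 entries of the measured members the counts were 16, 3 and 3, and among all 32851 RefSeq entries the shares were 32.7%, 26.5% and 6.75%. Such a match is a run of letters in a window, and no binding was measured here.

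Of the 9 MMPs, 3 rose and 6 did not pass, with a median log2 fold change of 0.09. Those that rose were the gelatinase Mmp2, which cuts denatured and basement membrane collagen, and the membrane-anchored Mmp14 and Mmp16, of which Mmp14 is the known activator of the Mmp2 precursor. Mmp2 read 8.95, 9.09 and 9.01 in the control livers and 9.65 in each of the 3 livers labelled knockout. The labelled knockout arrays were almost equal and stood above every control, a 1.55-fold rise (log2 fold change 0.63, SE 0.09, adjusted p = 0.0128). Mmp14 read 9.93, 9.79 and 9.66 in controls and 10.30, 10.33 and 10.35 in livers labelled knockout. Again the groups did not overlap, and the spread was wider among controls (0.53, SE 0.10, adjusted p = 0.0264). Mmp16 read 6.37, 6.29 and 5.96 in controls and 6.68, 6.73 and 6.81 in livers labelled knockout. Control replicate 3 was the lowest of the 6 arrays, and the difference passed by a small margin (0.53, SE 0.12, adjusted p = 0.0436).

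Mmp11, a stromelysin of stromal cells, did not pass although its groups did not overlap. It read 6.32, 6.26 and 6.15 in controls and 6.58, 7.34 and 6.94 in livers labelled knockout (0.71, SE 0.18, adjusted p = 0.0553). Labelled knockout replicate 2, the array with the high neural reading, was the highest, and without it the difference was 0.52 (adjusted p = 0.0747). Without replicate 1, the lowest of the labelled knockout arrays, Mmp11 passed (0.89, adjusted p = 0.0214). The remaining MMPs differed little. Mmp17, another membrane-anchored MMP, differed by 0.09 (95% interval −0.16 to 0.33) and the small membrane protease Mmp23 by 0.06 (−0.27 to 0.39). Mmp3, a stromelysin, read 3.30 to 3.52 in all 6 arrays, near the lowest deposited value of 2.55. Mmp19 differed by −0.16 (−0.42 to 0.09). Mmp28, known as epilysin, read 4.80, 4.94 and 5.11 in controls and 4.41, 5.04 and 4.38 in livers labelled knockout. Replicate 2 of the labelled knockout lay within the control range and the other 2 below it (−0.34, adjusted p = 0.335). Without that replicate, the highest of its group, Mmp28 was lower (−0.56, adjusted p = 0.0484), the only member to pass downward in a fit without 1 array. Leaving out the highest array lowers the difference by construction.

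**Figure D2:**
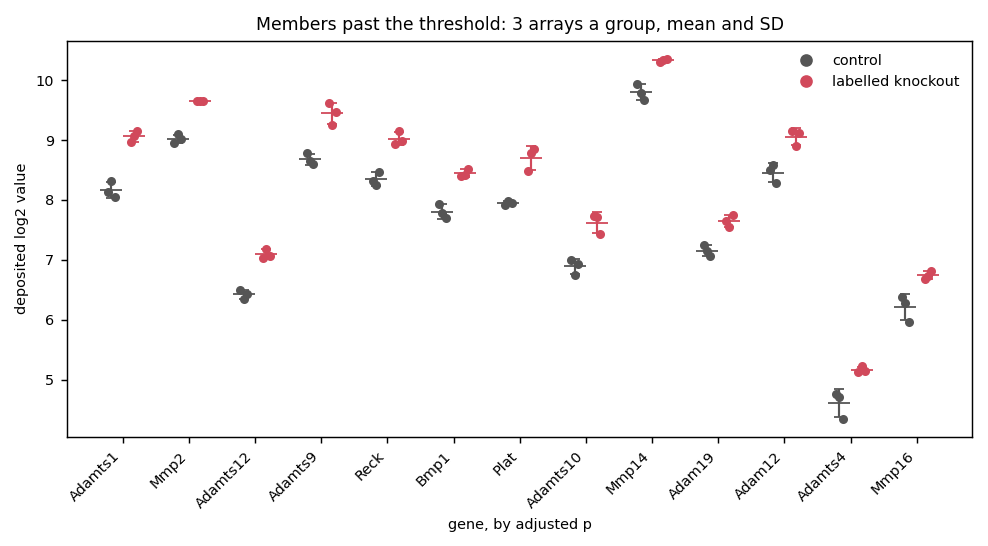
Deposited log2 values of the 13 members past the threshold, ordered by adjusted p, with 3 control arrays in grey and 3 labelled knockout arrays in red; the horizontal marks are means and the bars are SD over n = 3 arrays. In each gene the red points lie above the grey ones, closest together in Mmp2 (9.65 in each labelled knockout array).

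The ADAMTS genes, the largest group, had the most rises, but their share of 31.2% was close to the 33.3% of the MMPs and of the ADAMs. Of 16 measured, 5 rose and 11 did not pass, with a median log2 fold change of 0.39. Adamts1, which cleaves versican and aggrecan, read 8.13, 8.32 and 8.05 in controls and 8.97, 9.07 and 9.15 in livers labelled knockout. The groups were well apart, and the rise was 1.86-fold (0.90, SE 0.11, adjusted p = 0.00932). Adamts9, another versican-cleaving enzyme, read 8.78, 8.66 and 8.59 in controls and 9.61, 9.26 and 9.46 in livers labelled knockout. It rose 1.70-fold, with labelled knockout replicate 2 the lowest of its group (0.77, SE 0.12, adjusted p = 0.0158). Adamts4, an aggrecan-cleaving enzyme, read 4.77, 4.71 and 4.35 in controls and 5.12, 5.22 and 5.14 in livers labelled knockout. All of its values lay below the array median, and control replicate 3 stood apart at the low end (0.55, SE 0.13, adjusted p = 0.0418).

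The other ADAMTS genes that rose have other known substrates. Adamts10, which associates with fibrillin microfibrils, read 6.99, 6.76 and 6.94 in controls and 7.73, 7.71 and 7.42 in livers labelled knockout. It rose 1.65-fold without overlap (0.73, SE 0.12, adjusted p = 0.0183). Adamts12, which cleaves cartilage oligomeric matrix protein, read 6.50, 6.35 and 6.43 in controls and 7.03, 7.19 and 7.07 in livers labelled knockout. Both groups were tight, and the rise was 1.59-fold (0.67, SE 0.09, adjusted p = 0.0128). Adamts7, its closest relative, read 5.39, 5.19 and 5.34 in controls and 5.66, 6.44 and 6.01 in livers labelled knockout and did not pass (0.73, SE 0.18, adjusted p = 0.0569). As for Mmp11, the highest array was labelled knockout replicate 2, without which the difference was 0.53 (adjusted p = 0.0745), and Adamts7 too passed without replicate 1 (0.92, adjusted p = 0.0232).

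Adamts19 and Adamts6 also had groups that did not overlap and did not pass with all 6 arrays. Adamts19 read 4.84, 4.76 and 4.83 in controls and 4.95, 5.81 and 5.54 in livers labelled knockout, where replicate 1 stood close to the controls and replicate 2 was the highest (0.63, adjusted p = 0.106). It passed without replicate 1 (0.87, adjusted p = 0.0150) and differed by 0.44 without replicate 2 (adjusted p = 0.196). Adamts6, a close relative of Adamts10, read 4.86, 5.47 and 5.25 in controls and 5.50, 5.80 and 5.83 in livers labelled knockout. Control replicate 2 came close to the lowest labelled knockout array (0.51, adjusted p = 0.112). Adamts17 split the labelled knockout group, with 7.35 and 7.15 in replicates 1 and 3 and 6.27 in replicate 2, against 6.62 to 6.72 in controls. Over all arrays it differed by 0.24 (adjusted p = 0.657), and without replicate 2 of the labelled knockout by 0.57 (adjusted p = 0.0360). Adamts5, an aggrecan-cleaving enzyme like Adamts4, differed by 0.26 with a wide interval (−0.20 to 0.72). Its labelled knockout arrays read 4.89, 4.36 and 5.22, and the difference was 0.49 without replicate 2 (adjusted p = 0.0887) and 0.06 without replicate 3 (adjusted p = 0.895). Adamts3, a procollagen-trimming enzyme that also takes part in activating Vegfc, differed by −0.05 (−0.42 to 0.33). Adamts8, Adamts15, Adamts16, Adamts18 and Adamts20 had overlapping groups and differences from −0.19 to 0.14.

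Among the 6 ADAM proteases, 2 rose and the other 4 had small negative differences. Adam12 and Adam19, the meltrins, are known from muscle, heart and mesenchyme development. Adam12 read 8.50, 8.59 and 8.28 in controls and 9.15, 8.89 and 9.12 in livers labelled knockout. Its rise was 1.51-fold and the groups did not overlap (0.60, SE 0.12, adjusted p = 0.0305). Adam19 read 7.25, 7.14 and 7.07 in controls and 7.65, 7.55 and 7.75 in livers labelled knockout. It rose 1.41-fold, the smallest of the rises (0.50, SE 0.10, adjusted p = 0.0305). The general sheddases stayed close to the controls. Adam10, the sheddase of Notch receptors and cadherins, read 11.03, 11.01 and 11.09 in controls and 10.89, 11.02 and 10.94 in livers labelled knockout, a difference of −0.09 (95% interval −0.30 to 0.11). Adam17, which releases tumour necrosis factor and growth factor precursors, read 8.93, 8.88 and 8.88 in controls and 8.83, 8.77 and 8.83 in livers labelled knockout. Its groups did not overlap, the only member where the labelled knockout arrays all lay lower, but the gap was small (−0.09, interval −0.28 to 0.10, adjusted p = 0.621). Adam9 differed by −0.05 (−0.25 to 0.15) and Adam15, found on endothelium and other cells, by −0.20 (−0.51 to 0.10). These intervals leave room for changes of up to about the sizes given and do not show that the genes were equal.

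The inhibitors behaved unevenly, with 1 of 5 past the threshold and a median of 0.24. Reck, a membrane-anchored inhibitor of several MMPs including Mmp2 and Mmp14, read 8.31, 8.24 and 8.47 in controls and 8.94, 9.14 and 8.99 in livers labelled knockout. It rose 1.60-fold without overlap (0.68, SE 0.10, adjusted p = 0.0160). The secreted TIMPs did not pass. Timp1 read 5.26, 5.15 and 5.50 in controls and 5.66, 6.02 and 5.45 in livers labelled knockout, so the groups overlapped in 1 array (0.41, interval 0.04 to 0.78, adjusted p = 0.176; 0.26 without labelled knockout replicate 2). Timp2, which helps Mmp14 activate the Mmp2 precursor as well as inhibiting MMPs, differed by 0.09 (−0.17 to 0.35). Timp3, which binds the matrix and inhibits ADAM and ADAMTS proteases too, differed by −0.05 (−0.41 to 0.32), with labelled knockout replicate 3 the lowest array at 9.39, without which the difference was 0.12 (adjusted p = 0.664). Timp4 read 3.42 to 4.0, low on the scale of every array (0.24, adjusted p = 0.362).

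In plasminogen activation the tissue-type activator moved and the urokinase pair did not pass. Plat, tissue-type plasminogen activator, a product of endothelium among other cells, read 7.91, 7.99 and 7.95 in controls and 8.48, 8.79 and 8.85 in livers labelled knockout. The controls were tight, all labelled knockout arrays were higher, and the rise was 1.69-fold (0.76, SE 0.12, adjusted p = 0.0160). Plau, the urokinase activator, read 5.89 to 5.95 in controls and 5.80 to 6.13 in livers labelled knockout (0.10, interval −0.16 to 0.36). Plaur, the urokinase receptor, differed by −0.17 (−0.58 to 0.23), again with overlapping groups. Of the tolloids, which cut the carboxyl ends off fibrillar procollagens and release BMPs from chordin, Bmp1 rose and Tll1 did not pass. Bmp1 read 7.93, 7.78 and 7.69 in controls and 8.40, 8.42 and 8.52 in livers labelled knockout (0.65, SE 0.10, adjusted p = 0.0160). Tll1 read 5.17, 5.25 and 5.26 in controls and 5.58, 5.70 and 6.14 in livers labelled knockout, without overlap (0.58, SE 0.15, adjusted p = 0.0578). Replicate 3, the labelled knockout array with the high heart reading, was the highest. Tll1 differed by 0.41 without it (adjusted p = 0.10) and passed without replicate 1 (0.69, adjusted p = 0.0410).

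**Figure D3:**
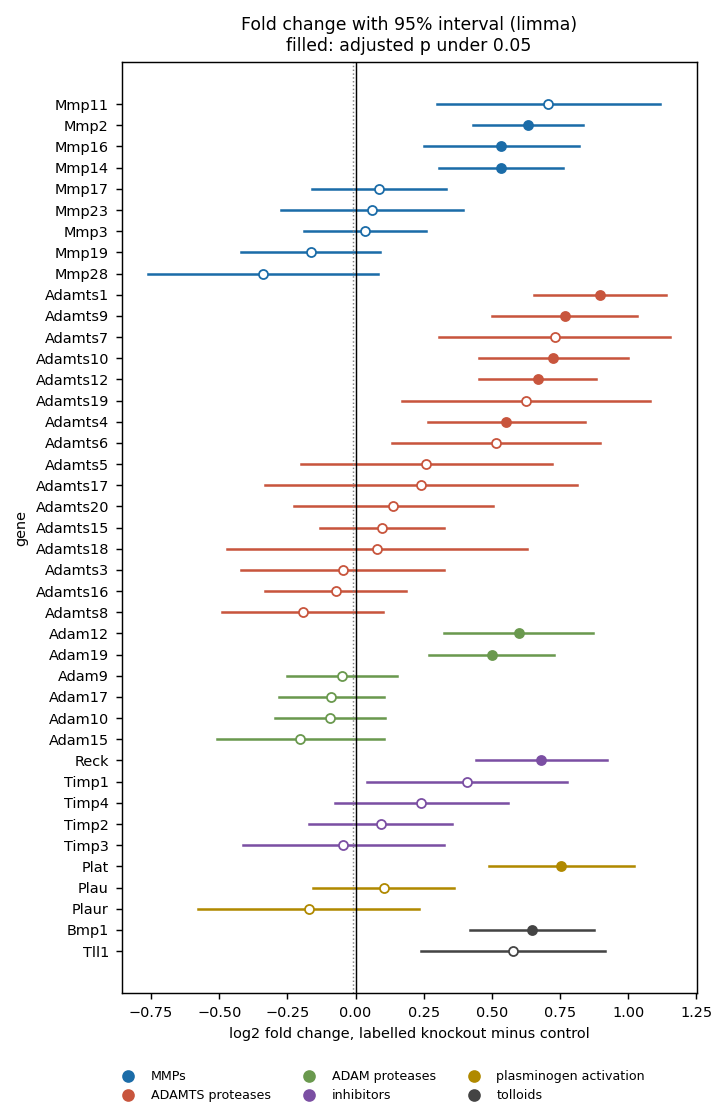
Log2 fold change of each of the 41 members, labelled knockout minus control, with its 95% interval from limma; colour gives the family, filled points have an adjusted p under 0.05, and the dotted line is the median of all genes (−0.01). Filled points run from 0.50 in Adam19 to 0.90 in Adamts1, and every other ADAM and TIMP but Timp1 has an interval that includes 0.

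The rest of the protease families and their partners were read from lists of related genes. Of 13 other MMPs 0 passed, with 0 higher and 1 lower at an unadjusted p under 0.05, and all 13 had means below the array median. The gelatinase Mmp9, partner of Mmp2 in name and substrate, read 3.84 to 4.55 (−0.11, adjusted p = 0.819). Among 10 other ADAM genes 1 rose, the soluble Adamdec1 (0.49, adjusted p = 0.0457), which also lay below the array median, and among 8 other ADAMTS and ADAMTS-like genes 0 passed (0 at an unadjusted p under 0.05). In the plasmin system 1 of 10 rose, the broad protease trap A2m (0.91, SE 0.15, adjusted p = 0.0198), while plasminogen Plg did not pass (0.23, adjusted p = 0.381).

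Of the genes that process and cross-link procollagen, 5 of 11 rose and 0 fell, with a median of 0.50. The lysyl hydroxylase Plod2 rose 2.56-fold (1.35, SE 0.11, adjusted p = 0.00591). The prolyl hydroxylase subunits P4ha2 (1.00, adjusted p = 0.00944) and P4ha1 (0.73, adjusted p = 0.0122) and the lysyl oxidase Lox (0.71, adjusted p = 0.0141) rose too, as did Sfrp2, which can enhance Bmp1 activity (0.68, adjusted p = 0.0345). Pcolce, the enhancer of the Bmp1 cut, did not pass (0.50, adjusted p = 0.0658). Of 12 proteoglycans and other substrates 2 rose and 0 fell. They were versican Vcan, the main substrate of Adamts1 and its relatives (2.29-fold, 1.19, SE 0.16, adjusted p = 0.0128), and the basement membrane linker Nid1 (0.47, adjusted p = 0.0401).

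Partners of the ADAM sheddases went both ways. Of 16 activators and partners, Rhbdf1, a carrier of Adam17 to the surface, rose (0.44, adjusted p = 0.0340) and Tspan33, a tetraspanin that escorts Adam10, fell (−0.90, SE 0.18, adjusted p = 0.0315). Rhbdf2, the other carrier of Adam17, did not pass (−0.47, adjusted p = 0.154). Of 21 known Adam10 and Adam17 substrates 4 rose, App (0.71, adjusted p = 0.0128), Fgfr1 (1.04, adjusted p = 0.0163), the cadherin Cdh2 (0.57, adjusted p = 0.0220) and the endothelial cadherin Cdh5 (0.53, adjusted p = 0.0374), and 1 fell, the interleukin receptor Il6ra (−1.05, adjusted p = 0.0260). In a list of 12 cathepsins and cystatins, which holds lysosomal proteases and their inhibitors together, 2 fell and 0 rose, and both that fell were cathepsins. Ctss, a cathepsin of macrophages and other antigen-presenting cells, fell by 1.24 (SE 0.13, adjusted p = 0.00821) and Ctsc, which activates granule proteases of leukocytes, by 0.72 (SE 0.13, adjusted p = 0.0247).

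Markers of the cells that could make these enzymes moved as well. Of 17 mesenchyme markers 6 rose and 0 fell, with a median of 0.52. Among those that rose were Rgs5, Col1a2 and Pdgfra, the last highest in labelled knockout replicate 2 (11.41 against 10.32 and 10.41). The 3 with negative differences were Tagln (−0.44, limma adjusted p = 0.128), Acta2 (−0.22) and Lum (−0.16), and Des differed by 0.005. The summed level of the 17 markers, on the log2 scale, was 13.88 to 13.98 in livers labelled knockout and 13.26 to 13.44 in controls. The dimmest markers, Lrat and Dpt, read below the array median in every array. Mesothelium markers rose in 3 of 10 cases (median 0.40; summed level 12.09 to 12.37 against 11.67 to 11.88) and shared endothelial markers in 4 of 12 (median 0.40; 12.42 to 12.73 against 12.06 to 12.28). Blood cell markers fell, in 10 of 12 cases for macrophages (median −1.29; summed level 10.15 to 10.61 against 11.26 to 11.65) and 8 of 10 for granulocytes and mast cells (median −1.38). Markers of sinusoidal endothelium, the cells in which the Cre is driven, fell in 7 of 10 cases (median −0.70; summed level 10.66 to 10.96 against 11.65 to 11.78). Erythroid markers fell in 3 of 8 cases (median −0.68), megakaryocyte markers in 4 of 8 (median −0.82), and hepatoblast markers rose in 2 of 11 (median 0.35). The summed hepatoblast level overlapped between groups, at 14.95 to 15.13 in livers labelled knockout against 14.93 to 14.99 in controls. The part of cell makeup in the rise of the proteases was not tested. Set against the mesenchyme markers, each array was centred on their median shift from gene means, an alternative added after the data were seen. There 3 members were higher and 17 lower. Those higher were Adamts1 by 0.45 (limma adjusted p = 0.00776), Adamts9 by 0.32 (adjusted p = 0.0362) and Plat by 0.30 (adjusted p = 0.0445). On that scale the median of all genes was −0.46, with 1.05% of them higher and 74.6% lower, so these values are relative to the mesenchyme markers. The other 10 of the 13 members that rose differed by 0.05 to 0.27 on that scale and did not pass. With most genes past the threshold, an adjusted p of 0.05 there stands for a larger unadjusted p than in the reported fit.

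**Figure D4:**
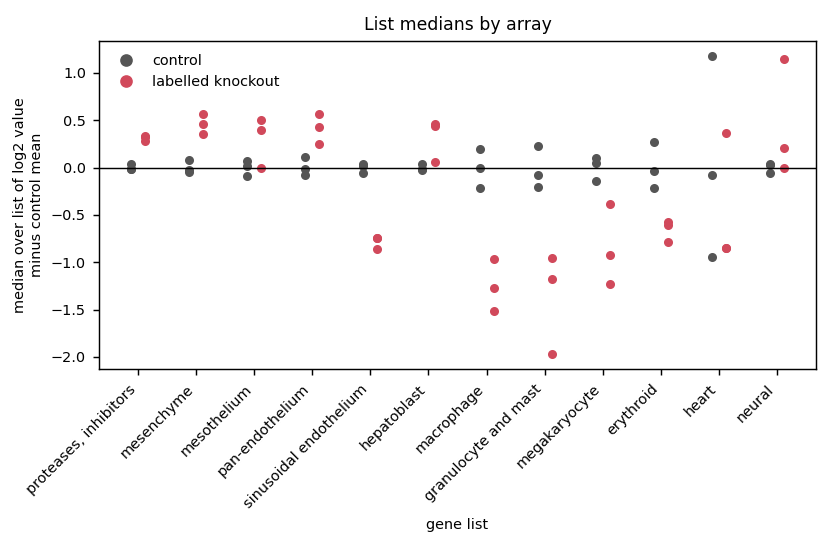
Median over each gene list of the array's log2 value less the mean of controls, 1 point per array, controls in grey and labelled knockout in red. Proteases and inhibitors lie at 0.28 to 0.33 in the labelled knockout arrays. Mesenchyme (0.35 to 0.57), shared endothelium (0.245 to 0.565), mesothelium (0.0 to 0.5) and hepatoblast (0.054 to 0.461) medians lie around that range. The macrophage medians lie at −1.52 to −0.97, and heart and neural lists scatter between single arrays.

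How many members passed depended on single arrays. Without labelled knockout replicates 1, 2 and 3 the counts of rises were 13, 12 and 4, where 3.37%, 2.67% and 0.752% of all genes rose. The 13 rises without replicate 1 are 9 of those reported and 4 others, Mmp11, Adamts7, Adamts19 and Tll1, and the 12 without replicate 2 are 11 of those reported and Adamts17. For each gene gained, the array left out was the lowest of its group, which raises a difference by construction. Such passes therefore do not add to the reported rises. Without control replicates 1, 2 and 3 the counts were 9, 3 and 0, all among those reported, where 1.29%, 0.911% and 0.107% of all genes rose. Adamts1, Mmp2 and Adamts12 passed in 5 of these 6 fits, Adamts10 in 4, Adamts9, Reck, Plat, Bmp1 and Mmp14 in 3, Adam12 and Adam19 in 1, and Adamts4 and Mmp16 in 0. Their log2 fold changes ran from 0.41 to 0.97 in all these fits. Of the related genes past the threshold, Plod2 and Ctss passed in all 6 of these fits, P4ha1, P4ha2, Vcan and App in 5 and Lox in 4. A2m, Ctsc, Cdh2 and Fgfr1 passed in 3, Sfrp2 and Il6ra in 2, Tspan33, Nid1 and Cdh5 in 1, and Adamdec1 and Rhbdf1 in 0. With embryo sex as a term none of these 18 genes passed (limma adjusted p of 0.118 or more) and 0 members passed, against 3 of all genes. In that fit, which rests on control replicate 2 as the control of the same sex, the 13 members differed by 0.45 to 0.87, all upward, with adjusted p-values from 0.154 to 0.339. Control replicate 2 is also the array with the highest heart reading, and the part of sex and of neighbouring tissue in the differences was not tested.

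**Figure D5:**
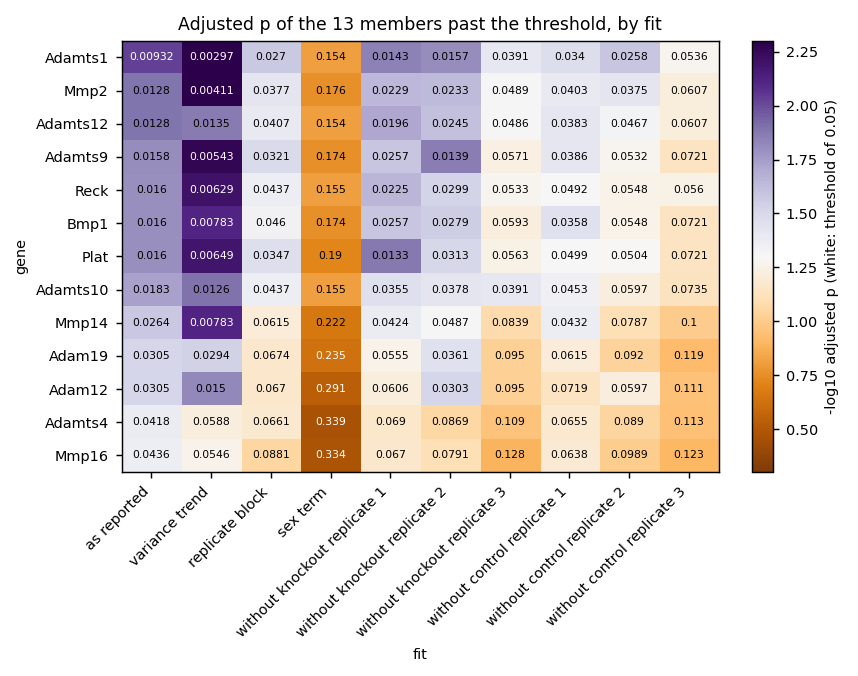
Adjusted p of the 13 members past the threshold (rows) as reported, in 3 other models and in 6 fits without 1 array (columns); purple cells are below 0.05, orange cells above, and the colour scale is −log10 of the adjusted p. The columns of the sex term and of the fit without control replicate 3 are orange throughout.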

How the data were processed

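Values were deposited on the log2 scale, and the submitters' processing notes name RMA, which corrects background, quantile-normalises arrays and summarises probes. Sorted values were identical in all 6 arrays, so a change shared by most genes would be hidden. No source used here names the chip definition. Of 24479 features, 23281 were named through the platform annotation, 23156 of them with a current RefSeq symbol (GRCm38.p6), and 1198 had no name. Where features shared a name (2 cases) the brighter was kept, leaving 23279 genes. The test was limma's (version 3.58.1, R 4.3.3; lmFit and eBayes), without covariates, and p-values were adjusted over all genes by Benjamini-Hochberg; intervals are 95% intervals of the fit. In simulated data, 191 of 200 genes changed by 1 on the log2 scale, more than any member, were recovered, with 16 false calls. The noise was independent and normal, with each gene's SD taken from the fit and no sex difference between groups. The simulation therefore does not give the share recovered for changes of the members' size in these arrays. The number of arrays limits the precision.

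Members and gene lists were chosen with earlier results of these data known. Named were every member, with values in each array for those past the threshold or differing by at least 0.5, and from each related list the genes past the threshold (up to 4, by p), besides Plg, Pcolce, Vcan, Rhbdf2 and Mmp9; other genes of that rule are not reported here. Sfrp2 and Cdh5 fall outside that rule and were added after their values were seen. Alternatives covered variance models, normalisation, centring, dim genes, array weights, the replicate block, sex, the threshold and leaving out each array.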

Additional observations from a re-analysis of the deposited data

How the results depend on the processing

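The count of 13 members higher and 0 lower was 12 to 16 higher and 0 lower with a variance trend, robust eBayes, cyclic loess, the dimmest 25% or 50% of genes left out, the mean of features, array weights or an adjusted p of 0.1. With the replicate number as a block it was 8 higher. The labels do not say whether the number marks a litter or a day. Deviations from group means correlated at −0.052, −0.011 and −0.077 for the same-numbered arrays. With 3 arrays a group such values cannot show whether samples were paired. With a sex term it was 0. Leaving out 1 array gave 0 to 13 higher, 0 to 1 lower and a median of 0.21 to 0.32. The median of 0.24 was 0.52 without the dimmest 50% of genes, where 28 members remained in the fit, and 0.34 with array weights. Centred on the gene-wise mesenchyme shift, 3 members were higher and 17 lower (1.05% and 74.6% of all genes), with a median of −0.21, and Adamts17 read −0.21. Centred on the plain median level of the mesenchyme markers, 0 were higher and 23 lower (94.8% of all genes were lower), with a median of −0.88 against −1.13 for all genes. Log2 fold changes were then −0.49 for Mmp2, −0.41 for Mmp11, −0.59 for Mmp14, −0.58 for Mmp16, −0.22 for Adamts1, −0.57 for Adamts4, −0.39 for Adamts7, −0.35 for Adamts9, −0.39 for Adamts10, −0.45 for Adamts12, −0.88 for Adamts17, −0.49 for Adamts19, −0.52 for Adam12, −0.62 for Adam19, −0.44 for Reck, −0.36 for Plat, −0.47 for Bmp1 and −0.54 for Tll1. The marker at that middle level was not the same gene in each array. It was Rgs5, Des and Rgs5 in control replicates 1, 2 and 3 (8.66, 8.06 and 8.30). In labelled knockout replicates 1, 2 and 3 it was Acta2, Acta2 and Lhx2 (9.555, 9.06 and 9.77). So this centring moved with which marker stood in the middle as well as with the markers' own changes (median 0.52). Its negative values do not show a fall against the mesenchyme markers. Of the 41 members, 22 passed in no fit other than the mesenchyme centrings. Where a count changed and the setting's fewer arrays or genes, or its middle marker, do not show why, the cause was not tested.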

Other observations

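Some members sit side by side in the genome. In the RefSeq table of GRCm38.p6, Adamts1 and Adamts5 are neighbouring protein-coding genes on chromosome 16. Adamts1 rose by 0.90 (SE 0.11) while Adamts5 differed by 0.26 (95% interval −0.20 to 0.72). Adamts15 and Adamts8 are neighbours on chromosome 9, and neither passed (0.10 and −0.19). The difference between neighbours was not tested.

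Labelled knockout replicate 2 was the array farthest from its group's median for 20 of the 41 members, against 10 and 11 for replicates 1 and 3. Among controls the counts were 17, 12 and 12 for replicates 1, 2 and 3. The same count was not made over all genes, so it does not show whether this is particular to the members. The neural list in replicate 2 of the labelled knockout lay 1.147 above the control mean, against −0.001 and 0.202 in replicates 1 and 3. A link between the neural reading and the counts was not tested.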
